A study of Mus musculus with 147 samples.

Results

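The 9 genes described here belong to matrix turnover: the tissue inhibitors *Timp1*, *Timp2* and *Timp3*, the metalloproteinases *Mmp2*, *Mmp14*, *Adamts1* and *Adamts5*, the serpin *Serpine2*, and *Plau*, the gene of urokinase. They were picked by symbol, and all 9 were found among the 35438 genes of the count tables. YFP-positive kidney cells of adult C57BL/6 mice were sorted by FACS, held singly in the wells of the Fluidigm C1 System, and turned into cDNA with SMART-Seq v4, a full-length chemistry without molecular identifiers. WT renin cells (51 wells) came from Ren1c+/+ Ren1c-YFP mice, with an intact renin gene, and Reninnull cells (96 wells) from Ren1c-/- Ren1c-YFP mice, which cannot make renin. YFP reports the activity of *Ren1c* regulatory DNA in WT and Reninnull mice alike. The sort therefore took cells in which that DNA was active or YFP was still present. Cells of several mice were pooled, WT cells went through a single capture and Reninnull cells through several, and no label ties a well to a mouse or capture. Reninnull wells were sequenced as 2 libraries of 48 wells, YFP1 and YFP2, and WT wells as a library of their own. Each genotype was therefore 1 sample, no test between genotypes was possible, and effects of genotype, capture and library cannot be told apart.

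The wells held a median of 1525972 counts in WT cells (26401 to 17124854), 2474268 in YFP1 and 4989996 in YFP2. The mitochondrial share of a well's counts was 60.4% in the median WT well and 12.4% in the median Reninnull well. Wells with 100000 counts and 1000 genes or more, and with a mitochondrial share of 25% or less, are called passing wells, and there were 15 in WT and 57 in Reninnull cells (28 in YFP1 and 29 in YFP2). *Ren1*, the deleted gene, stood at 96023 CPM (counts per 1000000 counts of a library or well) in the summed WT counts and at 0.135 CPM in Reninnull cells, where 1 of 96 wells reached 10 CPM. *Akr1b7*, a marker of renin cells, reached 10 CPM in 51 of 51 WT wells and 73 of 96 Reninnull wells, and *Acta2*, the smooth muscle actin, in 48 and 90. In 4 pairs of Reninnull wells the profiles were nearly identical, with a Pearson correlation of log2(CPM + 1) across genes of 0.965 to 0.987 against 0.893 for the next pair. In 3 of these pairs 1 well was labelled YFP1 and the other YFP2, so the libraries share these profiles, and the fourth joins cells 48 and 96 of YFP2. Cells 48 and 49 bear the title of the library other than that of the wells numbered next to them, YFP2 for cell 48 and YFP1 for cell 49, and the titles were followed. Markers of other kidney cells differed between the genotypes as well. The 6 fibroblast markers summed to 9.21 CPM in WT and 807 CPM in Reninnull cells (*Col3a1* was highest at 534 CPM, and *Dpt* was at 0 in both). *Lrp2*, a proximal tubule gene, stood at 7.84 and 84.9 CPM, and the podocyte gene *Nphs1* at 2.54 and 142 CPM. The *Nphs1* difference was not shared by the libraries. It stood at 2.03 CPM in YFP1 and at 259 CPM in YFP2, where cell 59 held 4400 CPM.

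Matrix metalloproteinases (MMPs) and the related ADAMTS enzymes are zinc proteases that cut collagens and proteoglycans outside the cell or at its surface. The tissue inhibitors of metalloproteinases (TIMPs) bind their active sites, and TIMP-3, which is held in the matrix, is the TIMP that also blocks ADAMTS enzymes. Urokinase is a serine protease that turns plasminogen into plasmin, and protease nexin-1, the product of *Serpine2*, inhibits urokinase and thrombin. In vessel walls, mural cells are a known source of TIMP-3.

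Promoters of 6 of the 9 genes were in the RefSeq set used (GRCm38.p6). The sequences shown are those of the 3 genes that led most wells and that of *Timp1*, which was almost absent from them. Each is the stretch of up to 250 bases before the RefSeq start site, on the strand of the gene, without the bases next to the start that GENCODE counts as exon (40 for *Timp3* and 31 for *Serpine2*). They lie at chr10:86300162-86300371 (plus strand), chr1:79858697-79858915 (minus), chr16:85803114-85803363 (minus) and chrX:20869916-20870165 (plus). Capitals mark matches on either strand. The TATA box was searched as TATAAA, the GC box as GGGCGG, the site of the factor AP-1 as TGANTCA, the core of the cAMP response element as TGACG, and the CArG box of smooth muscle genes in its usual form.
Timp3: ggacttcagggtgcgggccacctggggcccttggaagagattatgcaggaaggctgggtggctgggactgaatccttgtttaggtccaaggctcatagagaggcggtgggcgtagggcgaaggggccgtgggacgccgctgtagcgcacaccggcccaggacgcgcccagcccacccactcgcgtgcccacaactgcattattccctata
Serpine2: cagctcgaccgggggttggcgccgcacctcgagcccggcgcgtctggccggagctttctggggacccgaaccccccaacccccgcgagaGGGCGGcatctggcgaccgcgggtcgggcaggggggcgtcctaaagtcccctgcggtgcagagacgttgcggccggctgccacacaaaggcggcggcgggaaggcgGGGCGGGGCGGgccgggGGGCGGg
Adamts1: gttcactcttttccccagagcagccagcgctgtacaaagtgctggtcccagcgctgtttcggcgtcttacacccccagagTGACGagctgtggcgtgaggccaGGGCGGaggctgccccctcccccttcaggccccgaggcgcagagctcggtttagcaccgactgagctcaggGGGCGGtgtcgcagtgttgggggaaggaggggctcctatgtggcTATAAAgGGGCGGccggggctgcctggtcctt
Timp1: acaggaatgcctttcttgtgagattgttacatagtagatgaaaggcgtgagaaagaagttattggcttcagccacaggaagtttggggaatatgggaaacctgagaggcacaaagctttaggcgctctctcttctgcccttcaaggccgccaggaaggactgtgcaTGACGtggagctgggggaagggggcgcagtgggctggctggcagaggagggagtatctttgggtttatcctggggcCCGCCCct
Over the full 250 bases, the *Serpine2* promoter held 6 GC boxes, of which those at -55 and -50 overlap, and no TATAAA, with a GC content of 78.8%. The *Adamts1* promoter held TATAAA at base -32, GC boxes at -25, -76 and -147, and a TGACG at -170. *Timp3* and *Timp1* held 1 GC box each, at -15 and -8, and *Timp1* a TGACG at -84. GGGCGG was in all 6 promoters and in 32.7% of the 32851 windows of 250 bases. TGANTCA and the CArG box were in none of the 6, and in 6.75% and 1.47% of windows. TATAAA occurred in 12.4% of windows and TGACG in 17.8%. These are matches of letters and say nothing about binding in these cells.

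In both genotypes the same 3 genes carried most of this set. Per kilobase of exonic length, *Serpine2* held 36.4% of the summed level of the 9 genes in WT renin cells, *Timp3* 35.1% and *Adamts1* 21.2%. In Reninnull cells the shares were 43.9% for *Serpine2*, 24.2% for *Adamts1* and 19.4% for *Timp3*, so *Timp3* came before *Adamts1* in WT and after it in Reninnull cells as a whole. This change of order was seen in YFP2 (16.9% for *Timp3* and 26.0% for *Adamts1*) and not in YFP1 (23.5% and 21.0%). It also depended on the length by which counts were divided. With the median coding transcript length, 822 bases for *Serpine2* in place of 8287, the shares were 70.6% for *Serpine2*, 21.7% for *Timp3* and 5.98% for *Adamts1* in WT and 79.1%, 11.1% and 6.34% in Reninnull cells, so *Timp3* came before *Adamts1* in both, as it did without length (22.2% and 18.0% in Reninnull cells). Per exonic length, each of the other 6 genes held at most 4.64% in WT and at most 5.99% in Reninnull cells. Without length, *Adamts5* held 6.57% in WT. *Serpine2*, *Timp3* and *Adamts1* led in 37, 10 and 3 of the 51 WT wells and in 55, 15 and 13 of the 96 Reninnull wells, per kilobase of exonic length and at 10 CPM or more. With the median coding transcript length they led in 44, 5 and 1 WT wells and in 72, 15 and 4 Reninnull wells. Without length the counts were 38, 9 and 3 in WT and 62, 17 and 9 in Reninnull cells.

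**Figure D1:**
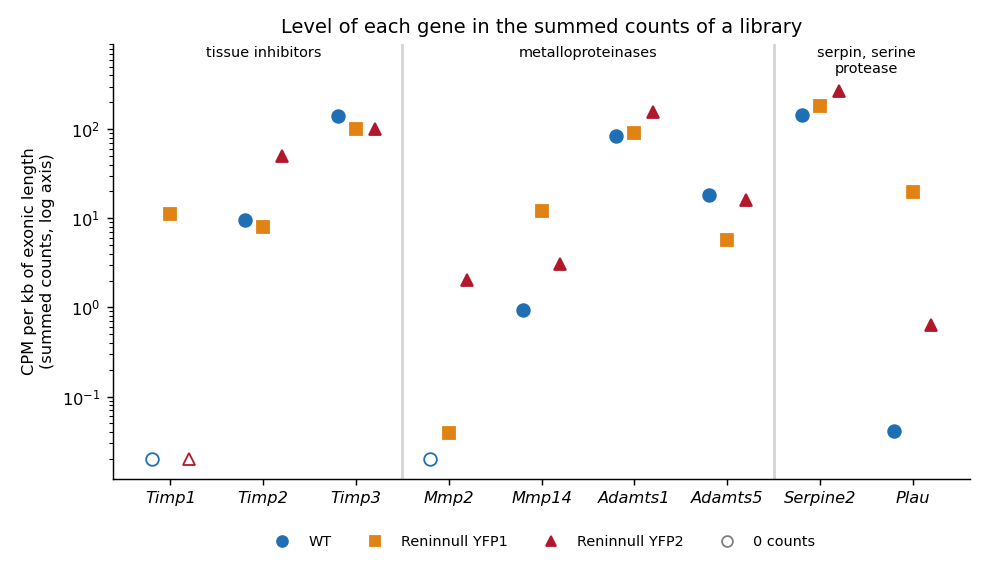
Level of each gene in the summed counts of the WT, YFP1 and YFP2 wells, in CPM per kilobase of exonic length on a log axis; open symbols at the bottom mark 0 counts. *Serpine2*, *Timp3* and *Adamts1* stand at 83.5 to 267 CPM per kb in each library, and the other genes lie lower and further apart between libraries.

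*Timp3* (chr10:86300372-86349506, plus strand, GRCm38) was the most abundant of the tissue inhibitors in both genotypes. Its level in the wells ran from 3.16 CPM through a median of 84.5 to 4965 CPM in WT, from 0 through 9.46 to 9967 CPM in YFP1, and from 0 through 158 to 4817 CPM in YFP2. The ranges overlap widely. At least 10 CPM was reached in 43 of 51 WT wells (84.3%, exact 95% interval 71.41 to 92.98) and in 54 of 96 Reninnull wells (56.2%, 45.7 to 66.4), with 24 wells in YFP1 and 30 in YFP2. Intervals here and below cover counting error only. Among passing wells the counts were 14 of 15 and 41 of 57 (93.3% and 71.9%), with medians of 1074 and 143 CPM. At 100 CPM the order over all wells turned, with 39.2% of WT and 41.7% of Reninnull wells. With every well thinned to 62000 counts, 85.7% of WT wells (72.8 to 94.1) and 67.5% of Reninnull wells (56.3 to 77.4) had at least 1 count, so the intervals overlap. The summed level was 1128 CPM in WT, 814 in YFP1 and 817 in YFP2, a log2 ratio of -0.47 for the genotypes, which turned to 0.11 with each well weighted equally and to 0.12 from counts corrected by SCTransform. Over passing wells the ratio was -0.71, and as a difference of mean log2(CPM + 1) it was -1.44. From all wells, YFP1 and YFP2 gave nearly the same ratio (-0.47 and -0.46), but this likeness depended on single wells. Cell 14 held 34.2% of the YFP1 counts. Without its own highest well, YFP1 stood at 551 CPM and YFP2 at 681 CPM, with ratios to all WT wells of -1.03 and -0.73. The WT level without its own highest well was 896 CPM. With the highest well of each genotype left out, the log2 ratio was -0.29.

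These ratios have to be read against the whole table. Among the 8747 genes with at least 10 CPM in at least 1 genotype, the median log2 ratio, Reninnull over WT, was 0.86 (0.45 for YFP1 and 0.71 for YFP2), and 65.1% of genes had the higher CPM in Reninnull cells. Against those medians *Timp3* was lower by 0.92 in YFP1 and 1.17 in YFP2, just short in YFP1 of the difference of 1 in both libraries that is used below to call a gene. With TMM factors, which scale libraries on the bulk of genes, the median was 0.16 and the *Timp3* ratio -1.17. With wells weighted equally and with SCTransform, the medians of all genes were 1.61 and 1.58. The highest *Timp3* level of a single well was 9967 CPM, in cell 14 of YFP1, a well with 1425 CPM of *Akr1b7* and 7107 CPM of *Acta2*. In YFP2 the well with the most *Timp3* counts, cell 59 at 3570 CPM, held 4400 CPM of *Nphs1* and 0.585 CPM of *Akr1b7*. The part of such wells in the *Timp3* level was not tested. *Timp3* shares 1733 of its 8144 exonic bases with *Syn3*, a gene listed with 115 counts in WT and 177 in Reninnull cells.

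*Timp2* (chr11:118301069-118355740, minus strand), which inhibits MMPs and with MT1-MMP takes part in the activation of pro-MMP-2, differed between the Reninnull libraries. In WT wells it ran from 0 through a median of 0 to 679 CPM, in YFP1 from 0 through 0.0552 to 516 CPM, and in YFP2 from 0 through 2.66 to 1158 CPM. It reached 10 CPM in 4 of 51 WT wells, 8 of 48 YFP1 wells and 21 of 48 YFP2 wells. The summed level was 36.8 CPM in WT, 31.2 in YFP1 and 195.2 in YFP2, which gave log2 ratios of -0.24 and 2.41 and of 1.71 for the libraries together. Its ratios thus fell on opposite sides of the medians, as did those of 25.1% of all genes tested. Cell 33 held 3859 of the 7281 WT counts, and without it the WT level was 18.1 CPM, below that of YFP1. With every well thinned to 62000 counts, *Timp2* was still seen in 12.2% of 49 WT wells, 15.0% of 40 YFP1 wells and 46.5% of 43 YFP2 wells. Among passing Reninnull wells, the 24 with *Timp2* had a median of 2138 CPM of renin cell markers against 562 CPM in the 33 without. Markers of other cells moved with *Timp2* as well, with medians of 368 against 130 CPM for fibroblasts and 547 against 145 CPM for mesangium. Podocyte markers had medians of 34.5 against 12.6 CPM. The median of proximal tubule markers was also higher with *Timp2*, by a larger factor than any of these. The part of such cells in the *Timp2* level was not tested.

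*Timp1* (chrX:20870166-20874735, plus strand), the inducible inhibitor that is often raised in injured tissue, was almost missing. It had 0 counts in all WT wells, which allows a summed level of up to 0.0152 CPM (3 counts), and 0 counts in YFP2. All but 4 of its 1780 counts in YFP1 lay in 1 well, cell 21 at 240 CPM. That well held 9710 CPM of *Akr1b7*, the highest of its library, and was also the YFP1 well with the most *Adamts5* counts. The summed level of 4.46 CPM in Reninnull cells was at least 294-fold the 3 counts that WT allows. Without that well 4 counts remained, and the bound on the log2 ratio was -0.60.

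**Figure D2:**
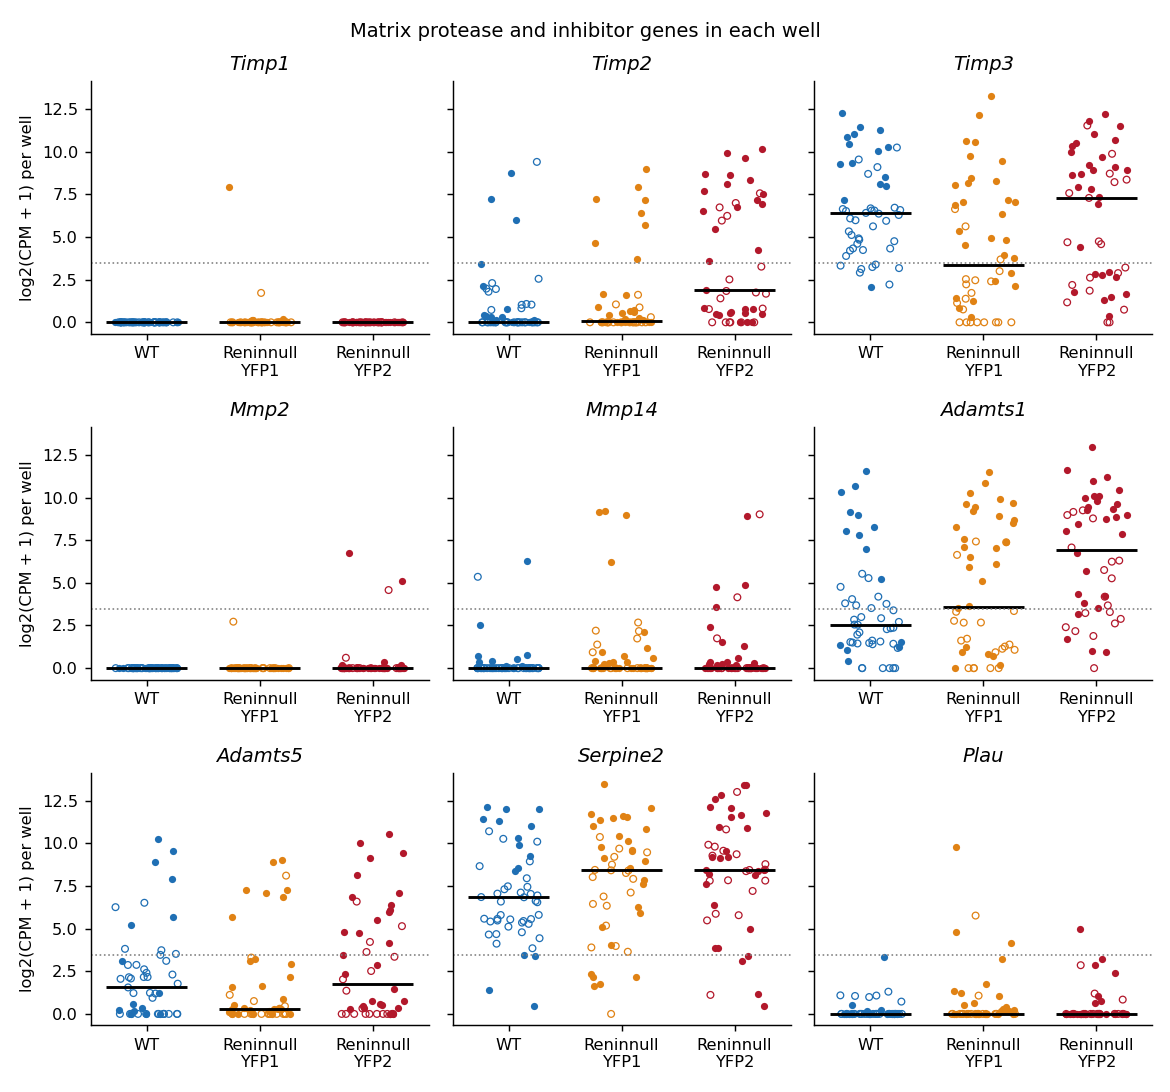
Level of each of the 9 genes in each well, as log2(CPM + 1), for 51 WT, 48 YFP1 and 48 YFP2 wells. Filled points are passing wells, open points the others, black bars the medians over all wells, and the dotted line marks 10 CPM. *Timp3*, *Adamts1* and *Serpine2* spread over the whole scale in every library, while *Timp1*, *Mmp2* and *Plau* lie at or near 0 in all but a few wells.

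*Adamts1* (chr16:85793827-85803113, minus strand) encodes a secreted protease that cuts the proteoglycans versican and aggrecan. Its level in the wells ran from 0 through a median of 4.84 to 3026 CPM in WT, from 0 through 10.9 to 2902 CPM in YFP1, and from 0 through 120 to 7863 CPM in YFP2. It reached 10 CPM in 19 of 51 WT wells (37.3%, 24.1 to 51.9) and 61 of 96 Reninnull wells (63.5%, 53.1 to 73.1). This is the reverse of the order seen for *Timp3* at 10 CPM, but not at 100 CPM. There the shares in WT and Reninnull cells were 17.6% and 44.8% for *Adamts1*, and 39.2% and 41.7% for *Timp3*. Thinned to 62000 counts, 36.7% of WT wells and 67.5% of Reninnull wells had at least 1 count. Among passing wells the shares at 10 CPM were 66.7% of 15 and 82.5% of 57. The summed level was 443 CPM in WT, 473 in YFP1 and 819 in YFP2, a log2 ratio of 0.58 (0.09 and 0.89) that became -0.12 with TMM factors. Without cell 1, which held 49.1% of the YFP1 counts, the YFP1 level was 262 CPM and its ratio to all WT wells -0.76. The WT level without its own highest well was 285 CPM. With the highest well of each genotype left out, the log2 ratio was 0.96. The summed ratio lay 0.29 below the median of all genes, with YFP1 below its median (-0.36) and YFP2 above (0.18). The share of wells at 10 CPM was also larger in Reninnull cells for the bulk of genes, as the median gene reached it in 3 of 51 WT wells (5.88%) and 12 of 96 Reninnull wells (12.5%). Of the WT counts, 39.3% came from 1 well, and *Adamts1* was past 1000 CPM in 3 WT wells and 10 Reninnull wells, all of them passing.

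*Adamts5* (chr16:85856173-85901828, minus strand), the main aggrecanase of cartilage in mice, lies 53059 bases from *Adamts1* on the same strand. Its wells ran from 0 through a median of 1.93 to 1221 CPM in WT, from 0 through 0.222 to 512 CPM in YFP1, and from 0 through 2.43 to 1473 CPM in YFP2. It reached 10 CPM in 12 of 51 WT, 8 of 48 YFP1 and 19 of 48 YFP2 wells, shares whose intervals overlap. The summed level was 197 CPM in WT, 60.7 in YFP1 and 172 in YFP2, a log2 ratio of -0.70 (-1.70 and -0.20) that turned to 0.23 with wells weighted equally and with SCTransform, and to 0.018 without the highest well of each genotype. A single WT well, cell 43, held 53.5% of the WT counts. Its wells were mostly wells with *Adamts1*: 20 of the 22 passing Reninnull wells with *Adamts5* also had *Adamts1*, where 47 of all 57 did, and 6 of 6 against 10 of 15 in WT.

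The MMPs themselves were scarce. *Mmp14* (chr14:54431612-54445364, plus strand), which encodes the membrane-bound collagenase MT1-MMP, ran from 0 through a median of 0 to 77.4 CPM in WT wells, 599 CPM in YFP1 and 519 CPM in YFP2. It reached 10 CPM in 2 of 51 WT wells and 10 of 96 Reninnull wells. *Timp2* did so in 7 of those 10 (5 of 8 with near-identical wells counted once), and in 29 of all 96 Reninnull wells. The summed *Mmp14* level was 5.52 CPM in WT, of which 86.5% came from cell 10, 71.1 in YFP1 and 18.3 in YFP2, a log2 ratio of 2.94 (3.69 and 1.73). In YFP1 the well with the most counts, cell 7 at 577 CPM, held 753 CPM of *Dcn*, with the other 5 of the 6 fibroblast markers under 10 CPM. It had the lowest smooth muscle marker level of its library, 16.0 CPM over 4 genes. Proximal tubule markers had a higher median in the 8 passing Reninnull wells with *Mmp14* than in the 49 without. Cell 10 held the highest level of these markers in WT. The part of such cells in the *Mmp14* level was not tested. In YFP2, 83.6% of the counts lay in cell 95, which is nearly identical to cell 47 of YFP1 (490 and 514 CPM). With such wells counted once the log2 ratio of the genotypes was 2.72. The direction in YFP2 rested on cell 95: without it the YFP2 level was 3.11 CPM, below that of WT (log2 ratio -0.83), while without cell 10 the WT level was 0.792 CPM. *Mmp2* (chr8:92827291-92853420, plus strand), the gene of gelatinase A, had 0 counts in WT and 0.132 CPM in YFP1. It stood at 6.77 CPM in YFP2, where cell 89 at 105 CPM held 76.97% of its counts. The other wells at 10 CPM were cells 48 and 96 (33.2 and 22.9 CPM), a nearly identical pair, so that these 3 wells hold no more than 2 distinct profiles. Without cells 48 and 49, YFP1 stood at 0.136 CPM and YFP2 at 6.28 CPM, and with cell 48 counted to YFP1, as its number would have it, the YFP1 level would be higher. Against the 3 counts WT allows, its Reninnull level was at least 247-fold higher. Cell 89 also held the most *Timp2* and *Serpine2* counts of YFP2 and the highest fibroblast marker level there, 5632 CPM from 2 of the 6 markers (the others were under 10 CPM) with 3340 CPM of *Col3a1*, beside 6490 CPM of *Akr1b7*. Whether fibroblast RNA had a part in these levels was not tested.

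*Serpine2* (chr1:79794197-79861180, minus strand) reached 10 CPM in more wells than any other of the 9 genes when all wells were counted. Its wells ran from 0.355 through a median of 114 to 4549 CPM in WT, from 0 through 341 to 11416 CPM in YFP1, and from 0.393 through 352 to 10887 CPM in YFP2. It reached 10 CPM in 47 of 51 WT wells (92.2%) and 85 of 96 Reninnull wells (88.5%), shares that differed by less than their counting intervals. Among passing wells it did so in 11 of 15 WT wells (73.3%), fewer than the 14 of *Timp3*, and in 48 of 57 Reninnull wells (84.2%). At 100 CPM the share over all wells was larger in Reninnull cells, with 51.0% of WT and 70.8% of Reninnull wells. The summed level was 1191 CPM in WT, 1487 in YFP1 and 2209 in YFP2, a log2 ratio of 0.66 (0.32 and 0.89), which lay 0.20 below the median of all genes and became -0.04 with TMM factors. Without cell 27, which held 28.4% of the YFP1 counts, the YFP1 level was 1106 CPM and its ratio to all WT wells -0.11. The WT level without its own highest well was 974 CPM, below that of YFP1. With the highest well of each genotype left out, the log2 ratio was 0.79. The passing Reninnull wells without *Serpine2* held less of the renin cell and mural markers in the median. In these 9 wells the median was 2.90 CPM of renin cell, 31.6 CPM of smooth muscle and 46.9 CPM of pericyte markers, against 1690, 13505 and 17261 CPM in the 48 wells with *Serpine2*, but for each of these lists 3 of the 9 wells held at least 100 CPM. The medians of fibroblast (19.9 against 337 CPM) and mesangium markers (44.5 against 298 CPM) were lower in these 9 wells too. Loop and distal tubule markers had a higher median there (2.03 against 0.162 CPM), and so had proximal tubule markers. The part of such cells in the *Serpine2* level was not tested. The 3 genes whose level followed *Serpine2* most closely over the 57 passing Reninnull wells were *Bgn* (biglycan, a matrix proteoglycan), *Col1a1* and *Cald1* (caldesmon of smooth muscle), with Pearson correlations of log2(CPM + 1) of 0.63, 0.61 and 0.60. These correlations describe wells that share libraries and depth and carry no test.

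*Plau* (chr14:20836660-20843385, plus strand), the gene of the urokinase that protease nexin-1 inhibits, was close to absent. It had 19 counts in all WT wells, 0.0960 CPM, and no WT well reached 10 CPM. In Reninnull cells it reached 10 CPM in 5 of 96 wells and summed to 46.5 CPM in YFP1 and 1.49 CPM in YFP2, but 91.6% of its Reninnull counts lay in cell 23 of YFP1 at 894 CPM. That well held 2.23 CPM of *Akr1b7*, 21.7 CPM of smooth muscle markers and 3372 CPM of *Slc12a1*, a transporter gene of the loop of Henle, and had the highest level of loop and distal tubule markers of its library. The part of such cells in the *Plau* level was not tested. The log2 ratio was 7.84 (8.92 and 3.96), and it was 3.93 over the 87 Reninnull and 45 WT wells with at least 100 CPM of smooth muscle or pericyte markers. *Serpine2* and *Plau* were both at 10 CPM in 4 wells, none of them WT.

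**Figure D3:**
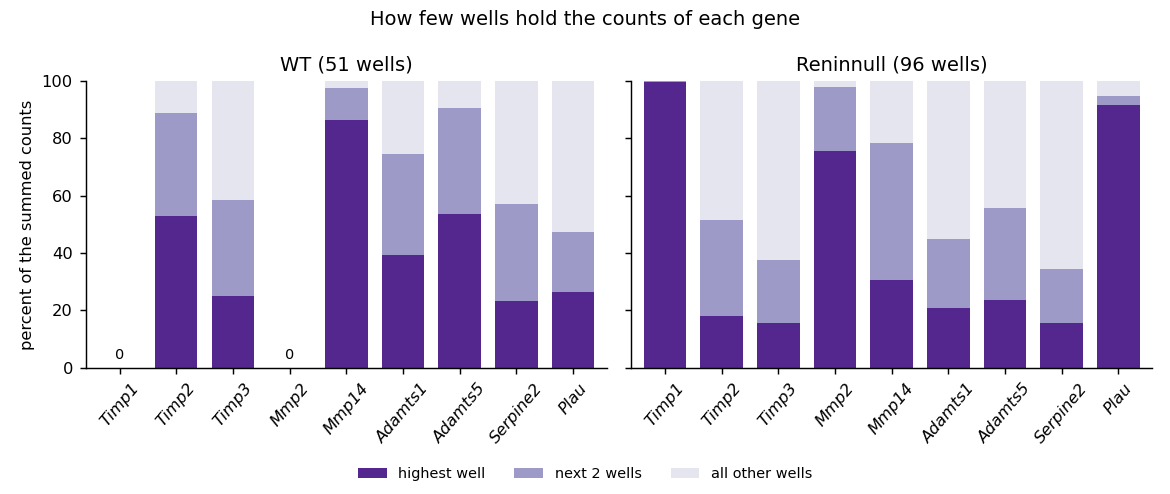
Percent of the summed counts of each gene held by its highest well, its next 2 wells and all other wells, in WT (51 wells) and Reninnull (96 wells) cells. *Timp1*, *Mmp2* and *Plau* rest on 1 well each in Reninnull cells and *Mmp14* on 1 well in WT, while *Timp3* and *Serpine2* are spread more widely.

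By the rule that a gene is called when its log2 ratio lies at least 1 from the median of all genes on the same side in YFP1 and YFP2, *Mmp14* and *Plau* were higher in Reninnull cells and none of the 9 genes was lower. *Timp1* and *Mmp2* did not pass the filter of 10 CPM, so 7 genes entered. Of all genes tested, 24.4% were higher by this rule and 22.3% lower, 46.7% in all, so 2 of 7 is below the share of the whole table. With no filter on low genes, *Mmp2* and *Plau* were called higher and *Timp3* and *Adamts5* lower, where 42.5% of 18720 genes were called. Counted around 0 in place of the median, *Mmp14* and *Plau* were called along with 47.0% of genes. With a log2 difference of 2 in place of 1, *Plau* was called along with 29.6% of genes. Both calls depended on the setting. *Mmp14* lay 1.03 above the median in YFP2 and was called in 8 of 16 other settings, but not with near-identical wells counted once, over passing wells or without wells under 200000 counts. *Plau* was called in 10 of the 16, but not with the highest well of each gene left out or over wells with mural markers. *Timp3* was called lower in 7 of the 16 and *Adamts5* in 2, and *Timp2* was called higher in YFP2 alone. Of the 7 genes, the median log2 ratio was 0.66, against 0.86 over all genes tested.

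The rule by which these genes were grouped sets metalloproteinases against tissue inhibitors. Per kilobase, *Mmp2*, *Mmp14*, *Adamts1* and *Adamts5* summed to 103 CPM in WT and 144 CPM in Reninnull cells, and *Timp1*, *Timp2* and *Timp3* to 148 and 136 CPM. The ratio of metalloproteinases to inhibitors was thus 0.694 in WT and 1.06 in Reninnull cells (0.898 in YFP1 and 1.17 in YFP2), a log2 difference of 0.61. The size of the ratio depends on the length used, with 0.310 and 0.558 for the median coding transcript length and 0.554 and 0.881 without length. This is a ratio within a library, so scaling libraries leaves it as it is, but cutting it to single pairs does not. *Timp3* made up 93.6% of the inhibitor level in WT and 73.6% in Reninnull cells, and *Adamts1* 81.3% and 86.5% of the metalloproteinase level. *Adamts1* over *Timp3* differed by 1.05 on the log2 scale (0.57 in YFP1 and 1.35 in YFP2). Against *Timp2* it was -1.13 for *Adamts1*, with the libraries on opposite sides (0.33 in YFP1 and -1.52 in YFP2), and -2.41 for *Adamts5* (-1.46 and -2.60). *Mmp14* over *Timp2* was likewise split between the libraries (3.92 and -0.67), as was *Adamts5* over *Timp3* (-1.23 and 0.27).

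The same comparison can be made inside each well, where the scaling of a well cancels. The metalloproteinase level exceeded the inhibitor level in 6 of 51 WT wells (11.8%, 4.44 to 23.9) and in 55 of 96 Reninnull wells (57.3%, 46.8 to 67.3), with 28 of 48 in YFP1 and 27 of 48 in YFP2. These counts are per exonic length, and were 2 and 40 wells with the median coding transcript length and 5 and 49 without length. In wells that did not pass it did so in 3 of 36 (8.33%) and 23 of 39 (58.97%). In passing wells it did so in 3 of 15 (20.0%, 4.33 to 48.1) and 32 of 57 (56.1%, 42.4 to 69.3), where the intervals overlap. Wells are not replicates of a genotype, and these intervals describe the counts of wells in hand. At least 1 inhibitor and no metalloproteinase reached 10 CPM in 23 of 51 WT and 10 of 96 Reninnull wells, both groups did in 21 and 51 wells, and at least 1 metalloproteinase without an inhibitor in 1 and 13 wells. Neither group reached 10 CPM in 6 WT and 22 Reninnull wells, where the comparison rests on low levels. Where both groups reached 10 CPM, the metalloproteinase level was the higher in 4 of 21 WT and 29 of 51 Reninnull wells.

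**Figure D4:**
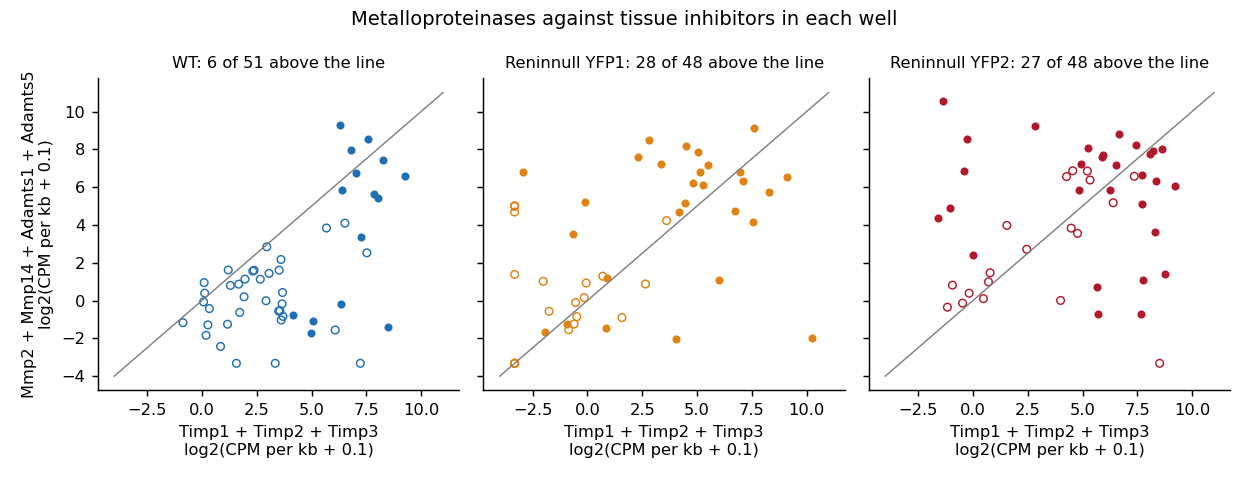
Summed metalloproteinases against summed tissue inhibitors in each well, as log2(CPM per kb + 0.1), for WT, YFP1 and YFP2; filled points are passing wells and the line marks equal levels. Above the line lie 6 of 51 WT wells, 28 of 48 YFP1 wells and 27 of 48 YFP2 wells with exonic length, and fewer with the other lengths.

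The WT wells that did not pass bear on these shares. In those 36 wells, with a median of 64.9% mitochondrial counts, the log2 ratio of *Timp3* to *Serpine2* had an interquartile range of 0.96 around a median of -0.90, whereas in the 15 passing WT wells the range was 3.83 around -0.95. *Timp3* reached 10 CPM in 29 of the 36 wells at a median of 43.9 CPM, and *Serpine2* in 36 of 36 at 73.9 CPM. Of the 39 Reninnull wells that did not pass, 29 had counts of both genes, with a range of 4.90, and *Timp3* reached 10 CPM in 13. The part of RNA quality in the WT shares of wells was not tested.

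Within the passing Reninnull wells no pair of the 9 genes had a Pearson correlation of log2(CPM + 1) beyond 0.35 in size. Of the 36 pairs, *Serpine2* and *Plau* (r = -0.35, with *Plau* at 10 CPM in 4 of the 57 wells), *Timp2* and *Adamts5* (0.34) and *Timp3* and *Serpine2* (-0.33) had the correlations furthest from 0. The last of these was -0.32 in YFP1 and -0.35 in YFP2, but 0.08 over the 15 passing WT wells. *Timp3* led in 12 of the 57 wells, *Adamts1* in 12 and *Serpine2* in 24, and a well held a median of 3 of the 9 genes at 10 CPM (up to 6). The genes closest to *Adamts5* over these wells were *Irs2* (0.58), *Rgs7bp* (0.56) and *Rgs2* (0.51), and those closest to *Timp2* were *Ltbp4* (0.50), *Thbs1* (0.49) and *Nckap1* (0.49). *Timp3* was closest to *Polr2b*, *Hnrnpa3* and *Tceal9* (0.48 to 0.46) and *Adamts1* to *Gm15280*, *Gm45551* and *Gm9973* (0.58 each), all 3 of them predicted genes. *Timp1*, *Mmp2*, *Mmp14* and *Plau* were at 10 CPM in under 20% of these wells, and no such genes were sought for them.

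Lists of 95 further genes of matrix proteolysis put the 9 genes in their setting. Of these, 38 passed 10 CPM, 8 were called higher in Reninnull cells and 7 lower, as against 24.4% and 22.3% of the whole table. Most other MMPs were scarce. Of 21 of them, 16 stayed under 0.5 CPM in both genotypes, among them *Mmp3*, *Mmp9* and *Mmp13* with 0 counts. *Mmp12*, the macrophage elastase, stood at 2.00 CPM in WT and 9.59 CPM in Reninnull cells, under the filter of 10 CPM, and reached 10 CPM in 6 of 51 and 16 of 96 wells. *Mmp11* (3.94 and 33.6 CPM in WT and Reninnull cells, log2 ratio 3.09) was called higher, with 71.1% of the Reninnull counts in 1 well and 9.87 CPM without it, and *Mmp17* (62.7 and 45.0 CPM) was not called. Among the other ADAMTS genes, 6 of 17 passed, and *Adamts8* (1.83 and 43.0 CPM, 4.55) and *Adamts2* (7.26 and 49.8 CPM, 2.78), the latter a procollagen N-proteinase, were called higher. *Adamts15* stood at 7.20 CPM in WT, 7.18 in YFP1 and 109 in YFP2. *Adamts4* and *Adamts9* had ratios of 1.83 and 0.93 and were not called.

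Inhibitors outside the 9 genes lay on both sides of the median. *Timp4*, the fourth tissue inhibitor, stood at 0.187 CPM in WT and 55.6 CPM in Reninnull cells (8.22), with 88.5% of the counts in cell 62 of YFP2 and 5 of 96 wells at 10 CPM. *Reck*, a membrane-anchored inhibitor of MMPs, was called lower (57.2 and 4.89 CPM, -3.55), though a single WT well gave 98.7% of the WT level. *Cst3*, the cathepsin inhibitor cystatin C, stood at 163 and 469 CPM and reached 10 CPM in 11 of 51 and 64 of 96 wells. *Serpinh1*, a collagen chaperone of the serpin family, had a ratio of 0.97. In the plasminogen system *Plaur*, the urokinase receptor, was called higher (0.0101 and 21.2 CPM) with 98.2% of its counts in 1 well, and *Serpini1*, an inhibitor of tissue plasminogen activator, was called lower (1269 and 469 CPM, -1.44). *Plat*, which encodes that activator, stood at 93.97 CPM in WT, 3.30 in YFP1 and 687 in YFP2, with 98.6% of the WT counts in 1 well and a WT level of 1.38 CPM without it (281 CPM in YFP2 without its own highest well), and *Plgrkt*, a plasminogen receptor, had a ratio of 0.11.

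Of the cathepsins, lysosomal proteases that can act on matrix when released, 9 of 10 passed. *Ctss* (0 and 48.7 CPM), *Ctsc* (0.0758 and 35.4 CPM) and *Ctso* (3.59 and 38.0 CPM) were called higher, in 4, 9 and 7 of 96 Reninnull wells at 10 CPM. *Ctsb*, the most abundant, stood at 1714 and 1545 CPM, and *Ctsa* at 250 and 125 CPM, and neither was called. Of the ADAM proteases, which shed membrane proteins, *Adam10* (-0.96) and *Adam19* (-3.34) were called lower with 91.6% and 98.8% of their WT counts in 1 well, while *Adam17* (0.42) and *Adam9* (0.32) were not called. Of the substrates and receptors, the matricellular genes *Thbs1* (82.6 and 34.8 CPM) and *Thbs2* (84.04 and 0.218 CPM) and *Lrp1* (483 and 102 CPM), whose product clears protease and inhibitor complexes, were called lower, and *Bsg* (104 and 166 CPM), which encodes an inducer of MMPs, was not called. A single well gave 94.8% of the WT counts of *Thbs1*, and without it the WT level was 4.52 CPM, below that of Reninnull cells. For *Thbs2* and *Lrp1* the highest WT well gave 74.7% and 62.3%, and without it 22.2 and 191 CPM remained. *Htra1* (1.40), *Bmp1* (0.32), *Adamtsl5* (2.19) and *Adamtsl1* (-0.90) completed the lists, with none called. Of the 38 genes, 14 had over 80% of their WT counts in 1 well, where 35.8% of 8424 genes did so. Ratios of opposite sign in YFP1 and YFP2 were seen for 8 of the 38. Of all genes tested, 25.1% lay on opposite sides of the medians, which is a related count but not the same. With the highest well of each gene left out, 4 of the 8 genes called higher (*Adamts8*, *Ctsc*, *Ctso* and *Ctss*) and 3 of the 7 called lower (*Serpini1*, *Lrp1* and *Thbs2*) were still called, and *Thbs1* was called higher.

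**Figure D5:**
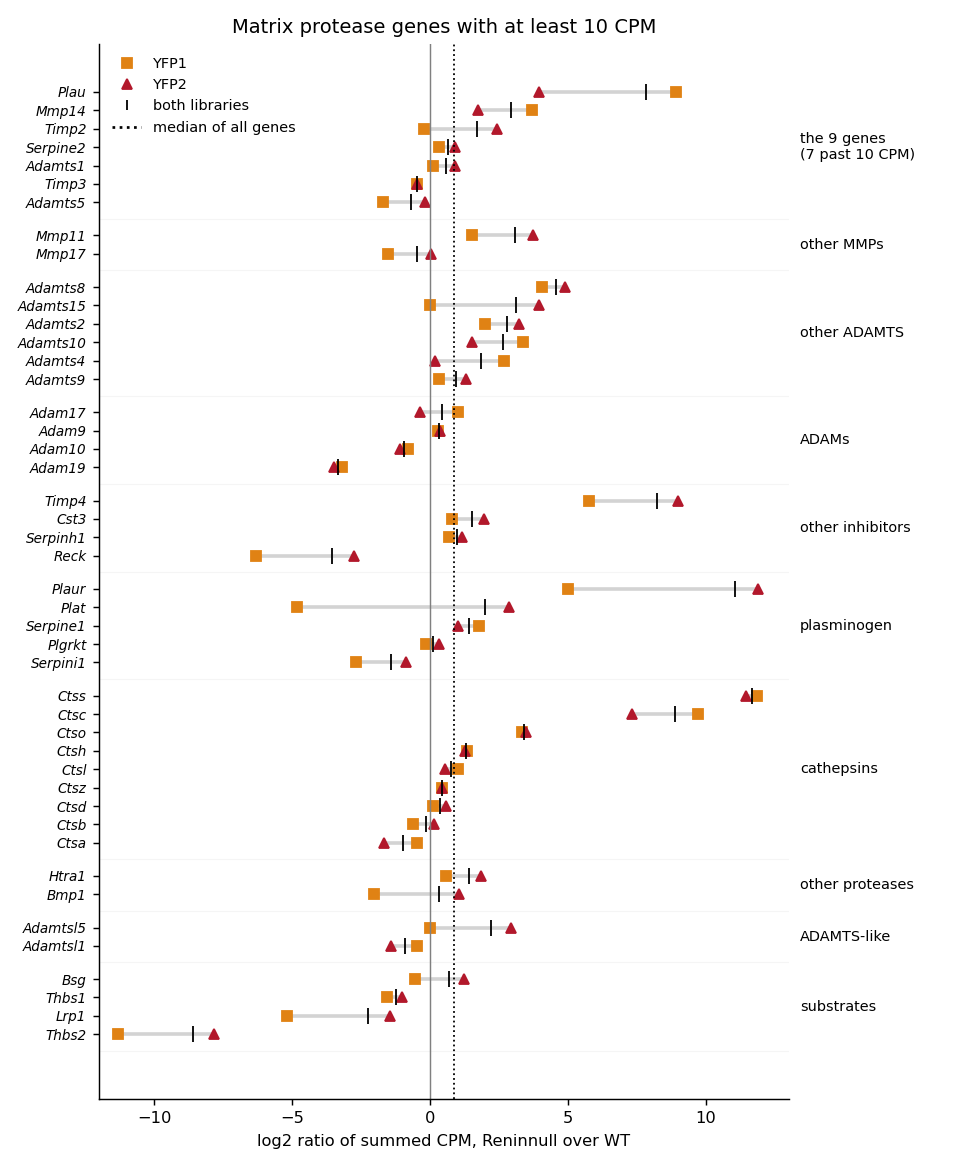
Log2 ratio of summed CPM, Reninnull over WT, for the 7 of 9 genes and the 38 list genes with at least 10 CPM: squares YFP1, triangles YFP2, bars both libraries together, the dotted line the median of all genes (0.86). *Timp3* has nearly the same ratio in each library when all wells are counted, while *Timp2*, *Plau* and *Plat* lie far apart between them.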

How the data were processed

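Single-cell RNA-seq counts of 51 WT and 96 Reninnull wells were used. Per the submitters' processing notes, reads were checked with FastQC 0.11.5, trimmed with Trimmomatic 0.39 and quantified with Salmon 0.11.2, on GRCm38.p6. The values the authors deposited are estimated counts per gene, summed from transcripts by tximport with length scaling (its version is not given in the sources used here). They were rounded, summed over the wells of a genotype or library and given as CPM, or CPM per kilobase of exonic length (GENCODE M21, GRCm38). A group at 0 was set to 3 counts. Poisson, conditional and Clopper-Pearson intervals at 95% are exact and cover counting error only, since PCR copies are not independent molecules. No test was run, as each genotype is 1 sample, and no doublet caller was run. The genes and lists were chosen with earlier results of these data known. Named genes are the 9 genes, the 2 largest and 2 smallest ratios of each list past 10 CPM (others were named after their values were seen), the 3 genes most correlated with a gene at 10 CPM in at least 20% of passing wells, and markers, of which some are not reported here. The script for ratios and calls was checked on simulated counts, which give no result here. Software: Python 3.11.15, numpy 2.4.6, pandas 2.3.3, scipy 1.17.1, matplotlib 3.10.9, R 4.3.3, edgeR 4.0.16 (TMM), Seurat 5.3.0 and sctransform 0.4.2.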

Additional observations from a re-analysis of the deposited data

How the results depend on the processing

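Each genotype is 1 sample, the labels tie no well to a mouse or capture, and WT cells came from a single capture, so the values rest on these wells and carry counting error only. No paired analysis was possible because no result comes from a test and the wells of WT and Reninnull cells share no replicate. Scaling moved the median log2 ratio of all genes from 0.86 to 0.16 (TMM) and 1.61 (mean CPM over wells). The cause of the differences between settings was not tested. The log2 difference in the metalloproteinase to inhibitor ratio (0.61) was 0.99 with mean CPM over wells, 2.26 with mean log2(CPM + 1), 0.90 without the highest well of each gene, 0.37 in YFP1 and 0.75 in YFP2 alone, 0.98 with SCTransform, 0.57 with near-identical wells counted once and 0.67 without length. In settings chosen after seeing the data it was 0.88 over wells with mural markers, 0.85 with median coding transcript length, 0.54 with *Adamts1* and *Adamts5* only, 0.51 with *Timp4* added and 1.28 without the 3 wells with the most metalloproteinase counts in each genotype. With other members it was 3.27 (*Mmp2* and *Mmp14* only), 1.23 (*Mmp14* over *Timp2*, 3.92 in YFP1 and -0.67 in YFP2), 3.41 (*Mmp14* over *Timp3*) and 1.05 (*Adamts1* over *Timp3*), and it reversed for *Adamts1* over *Timp2* (-1.13, but 0.33 in YFP1), *Adamts5* over *Timp2* (-2.41) and *Adamts5* over *Timp3* (-0.23, but 0.27 in YFP2). Of the 9 genes, 2 were called, against 1 with mean log2(CPM + 1), passing wells, no highest well, near-identical wells once, a log2 difference of 2 and, chosen after seeing the data, wells of at least 200000 counts or with mural markers, and against 4 in YFP1 alone and with no filter. Of all genes tested, 46.7% were called in the main setting, 71.3% in YFP1 alone, 42.5% with no filter, 29.6% with a log2 difference of 2, 10.9% with mean log2(CPM + 1) and 44.5% to 48.2% in the others with 1. Settings with 2 calls did not all call the same genes: with mean CPM and SCTransform *Mmp14* and *Timp3* were called, and in YFP2 alone, where 69.4% of all genes were, *Timp2* and *Timp3*. Without cells 48 and 49, a choice made after seeing the data, the log2 difference was 0.61 and *Mmp14* and *Plau* were called. Single ratios reversed for *Timp3* (0.11 with mean CPM, 0.12 with SCTransform), *Adamts5* (0.23 with both, 0.10 with mean log2, 0.018 without the highest well), *Adamts1* (-0.12) and *Serpine2* (-0.044) with TMM, and *Timp2* (-0.24 in YFP1 alone). For *Timp1*, at 0 counts in WT, the bound on the ratio was -0.60 without the highest well. A bound below 0 shows no reversal. Of the other single ratios in all settings, 79 kept their sign but lay above or below the counting interval of the main setting, and 27 stayed within it.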
